A study of Mus musculus with 2 samples.

Results

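Processed pseudogenes are copies of messenger RNAs that were reverse-transcribed and inserted into the genome, so they lack the introns of the gene they came from. The group described here was chosen by gene type and read number: genes annotated as processed pseudogene or transcribed processed pseudogene with at least 5 reads summed over both libraries. It holds 215 genes, of 10237 annotated with these types (2.10%) and of 18311 known genes with a read. Since the genes were selected on their reads, their levels are a description with no test. RNA was taken from the hippocampus at 14 days of age and its cDNA was sequenced in long reads. The animals were male B6CASTF1/J, a cross of the strains C57BL/6J and CAST/EiJ. There is a single group of 2 biological replicates, each made from 2 µg of RNA of 3 pooled males, and no condition is compared with another. Part of the labels gives the same animals for both replicates, and the differences between them may then be technical. Replicate 1 held 821324 mouse reads and replicate 2 held 743862.

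A new insertion brings no promoter and is usually not expected to be expressed. Copies of abundant messenger RNAs, above all those of ribosomal proteins and glycolytic enzymes, make up much of this class in mammals. A young copy can differ from its parent by a few bases or by none. The copy holds the parent's exons already joined, so a spliced parent read has the same bases across its junctions. Reads of the parent and the copy can then be told apart only by those few bases and by sequence outside the shared stretch. The parent's untranslated ends are such sequence where the copy lacks them. Each value below is therefore a number of reads assigned to a locus, and whether the RNA was made there was not tested.

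The parent of each pseudogene was taken as the protein-coding gene whose transcript aligned to it with the highest score. A single best parent, aligned over at least 50% of the pseudogene's length, was found for 205 of the 215. For the 54 genes whose symbol names a parent (Rpl3-ps1, for example), the symbol and the alignment gave the same gene in 54. Of the other 10 genes, 6 had several parents with equal scores, 3 aligned over less than 50% of their length and 1, Magef1, had no match. Copies of 156 different parents are present. For 190 of the 205 the parent lies on another chromosome, and 197 alignments run across at least 1 exon junction of the parent, with a median of 4. In 185 the annotation of the copy ends at or inside the parent's coding sequence.

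Of the copies shown here, 6 differ from their parent by 1 base, Gm15459 differs by 5 bases and Gm10123 by none. These numbers cover the aligned part of the annotated transcripts in the reference sequence. Sequence outside the annotated copies was not compared, nor was the sequence of CAST/EiJ. The windows below show a part of each aligned stretch. They are from GENCODE M21 transcripts on mm10, written 5′ to 3′ in the sense of each gene, all within the parent's coding sequence, and capitals mark the bases that differ within the pair. Gm15459 (chr5:5783422-5783462, minus strand) differs from Hspa8 here by G114A, where the parent's base comes first and positions count from 1 at the pseudogene's 5′ end.
Gm15459: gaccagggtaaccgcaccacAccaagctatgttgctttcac
Hspa8: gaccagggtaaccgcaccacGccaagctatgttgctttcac
Gm10123 (chr9:96895658-96895717, plus strand) and Ppia are the same over the whole aligned length, and the first 60 coding bases are shown.
Gm10123: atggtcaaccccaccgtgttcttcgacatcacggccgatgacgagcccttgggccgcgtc
Ppia: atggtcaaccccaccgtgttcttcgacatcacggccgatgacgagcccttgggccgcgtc
Gm12033 (chr11:20335490-20335530, minus strand) differs from Gapdh by T504C.
Gm12033: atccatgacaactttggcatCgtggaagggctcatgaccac
Gapdh: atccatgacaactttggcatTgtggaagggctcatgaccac
Gm5559 (chr5:95862078-95862118, plus strand) differs from Gapdh by T385A.
Gm5559: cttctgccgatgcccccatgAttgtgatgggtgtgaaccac
Gapdh: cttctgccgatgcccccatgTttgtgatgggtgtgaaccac
Gm13394 (chr2:28934244-28934284, minus strand) differs from Gapdh by A346C.
Gm13394: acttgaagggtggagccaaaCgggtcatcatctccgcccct
Gapdh: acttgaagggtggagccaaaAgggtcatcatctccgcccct
The remaining 3 are the pseudogenes called higher in replicate 1 by the test between the libraries given further on. Mpc1-ps (chr12:110858834-110858874, minus strand) differs from Mpc1 by G41A.
Mpc1-ps: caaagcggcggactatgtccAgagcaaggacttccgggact
Mpc1: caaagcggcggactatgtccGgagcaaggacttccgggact
Cbx3-ps6 (chr14:73955142-73955182, minus strand) differs from Cbx3 by A390G.
Cbx3-ps6: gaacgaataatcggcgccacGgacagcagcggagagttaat
Cbx3: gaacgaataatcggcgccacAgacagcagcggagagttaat
Gm11223 (chr4:69925786-69925826, minus strand) differs from Stmn1 by A274G.
Gm11223: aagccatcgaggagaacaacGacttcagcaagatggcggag
Stmn1: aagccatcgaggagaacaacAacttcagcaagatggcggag

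The 215 pseudogenes had 6366 reads in replicate 1 and 6290 in replicate 2, or 0.900% ± 0.0571 of all reads assigned to known genes (SD, n = 2). They took 95.1% ± 0.0917 of the reads on all annotated processed pseudogenes. The other 416 genes with a read had 1 to 4 reads each and 653 reads in all. Reads were concentrated in few genes: the most abundant held 23.5% ± 1.25 of the group's reads, the top 5 held 42.9% ± 2.57 and the top 20 held 65.6% ± 1.06 (SD, n = 2). The median gene had 14 reads, 87 genes had at least 20 and 22 had at least 100. CPM is reads per 1000000 mouse reads of the library. Counts were not divided by length, since each long read stands for a single cDNA. A count of 0 allows up to 3.65 CPM in replicate 1 and 4.03 CPM in replicate 2, counting error only.

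Gm15459 (mm10 chromosome 5, 5781615 to 5783555, minus strand) was the most abundant, with 1550 reads in replicate 1 and 1420 in replicate 2, or 1898 ± 15.4 CPM (SD, n = 2). Its best match over all 1941 bases is Hspa8, the constitutive Hsc70 chaperone, at 99.7% identity. Hspa8 itself had 1875 and 1595 reads, so the pseudogene's share of the pair was 45.3% (Wilson 95% interval 43.6% to 46.9%) in replicate 1 and 47.1% (45.3% to 48.9%) in replicate 2. The pseudogene had fewer reads than the parent in both libraries. Of the reads of Hspa8, 1781 and 1503 were in transcripts of the GENCODE M21 annotation.

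Gm10123 came next, with 599 and 582 reads (756 ± 37.5 CPM). Its parent Ppia, which encodes the proline isomerase cyclophilin A, had 752 and 646 reads, and the share of the pair was 44.3% in replicate 1 and 47.4% in replicate 2. Rpl3-ps1 on the X chromosome had 246 and 255 reads against 605 and 556 for Rpl3, a subunit of the large ribosomal particle, a mean share of 30.2% ± 1.79 (SD, n = 2). For Gm10123 and Rpl3-ps1 the parent had more reads in each library.

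Gm10698 had 148 and 119 reads, and its parent Tmed2, a cargo receptor of the early secretory pathway, had 172 and 204. Its share was 46.3% in replicate 1 and 36.8% in replicate 2. Gm14539, identical over 174 bases to Usmg5, a small subunit of mitochondrial ATP synthase, had 97 and 116 reads against 184 and 258. Gm12338, identical to Cox7c of cytochrome c oxidase, had 71 and 109 reads against 171 and 186. Vcp-rs had 93 and 73 reads against 310 and 295 for Vcp, the AAA ATPase p97. Eif4a-ps4 had 62 and 70 reads against 117 and 124 for Eif4a1, the RNA helicase of translation initiation. In each of these pairs the parent had more reads than the copy in both libraries.

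**Figure D1:**
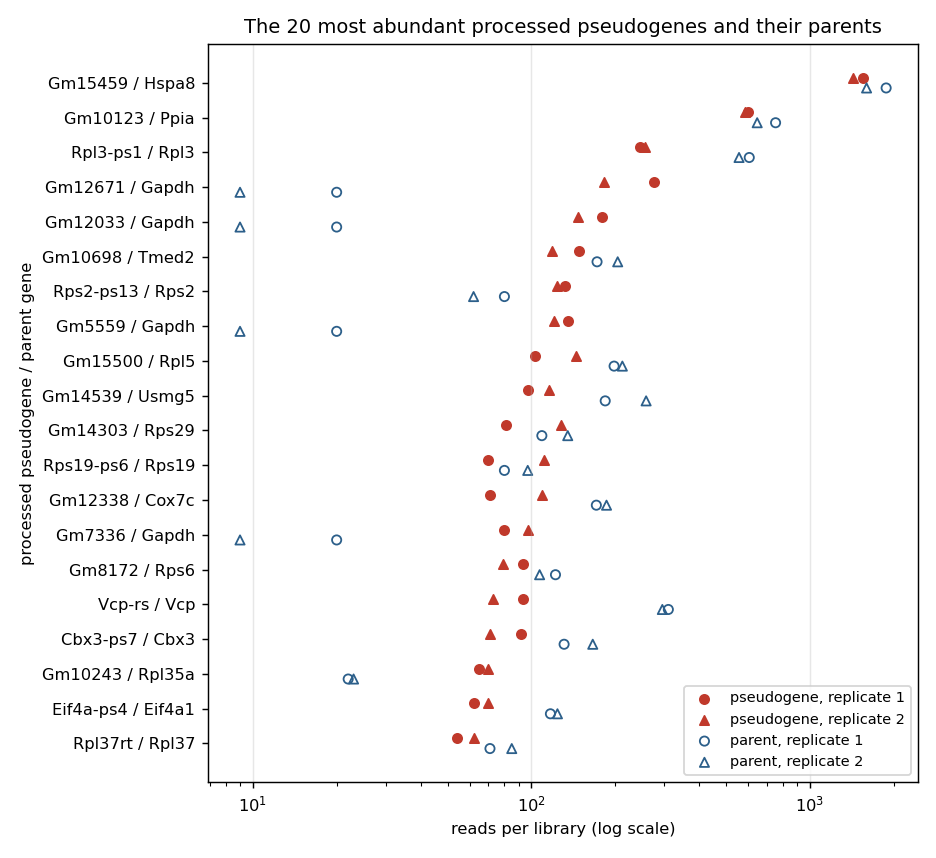
Reads per library (log scale) of the 20 most abundant processed pseudogenes (filled red) and of their parents (open blue); circles are replicate 1 and triangles replicate 2. Gm15459 and Gm10123 lie close to Hspa8 and Ppia, while the 4 copies of Gapdh lie far to the right of their parent, which had 20 and 9 reads.

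Copies of Gapdh, the glycolytic glyceraldehyde-3-phosphate dehydrogenase, form the largest family by members, 11 of the 172 annotated copies whose single best match is Gapdh. Gm12671 (chromosome 4, 91851668 to 91852669), identical to the Gapdh coding sequence, had 275 and 182 reads. Gm12033 had 179 and 147, Gm5559 had 135 and 121, Gm7336 had 80 and 97, and Gm13394 had 43 and 26. The other 6 members had 2 to 7 reads per library, among them Gm10359, which is also identical to the parent and had 4 and 5 reads. Among the members identical to this parent, reads thus ranged from 9 to 457, and the rule of at least 5 reads bounds the low end. Of the 172 annotated copies, 18 had a read.

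Together the Gapdh copies had 729 reads in replicate 1 and 600 in replicate 2, whereas Gapdh itself had 20 and 9. The copies' share of the family was 97.9% ± 0.843 (SD, n = 2). Of the reads of Gapdh, 18 and 6 were in spliced models, and 5 and 7 were in annotated transcripts. Gm3839, a protein-coding gene that aligned to these copies nearly as well, had 0 reads in both libraries. Gapdh is thus among the genes whose own read number is far below that of its copies. Where these reads were transcribed was not tested.

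**Figure D2:**
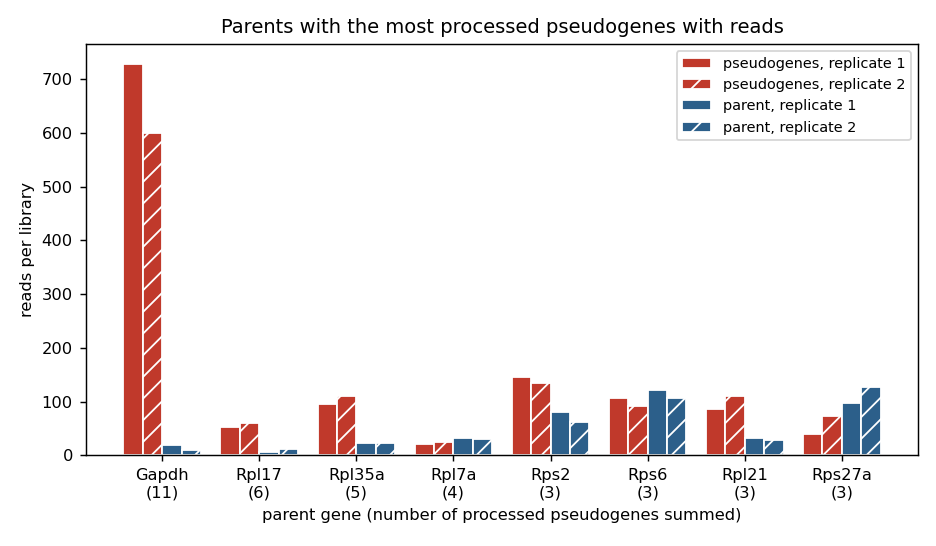
Reads per library of the 8 parents with the most pseudogenes (blue) and the sum of those pseudogenes (red); plain bars are replicate 1 and hatched bars replicate 2, and the number of pseudogenes is in brackets. The copies of Gapdh had 729 and 600 reads and Gapdh had 20 and 9; the copies of Rpl7a and Rps27a had fewer reads than their parents in both libraries.

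Ribosomal protein copies were the most numerous group, with 82 genes from 51 parents and 1710 and 1991 reads, 29.3% ± 3.39 of the reads of all 215 (SD, n = 2). The groups used here follow the parent's symbol. Rps2-ps13 on the X chromosome had 132 and 124 reads, more than the 80 and 62 of its parent Rps2 in each library. Gm15500, a transcribed processed pseudogene identical to Rpl5 over 894 bases, had 103 and 144 reads against 198 and 212. Gm14303, identical to Rps29, had 81 and 128 reads against 109 and 135. Rps19-ps6 had 70 and 111 reads against 80 and 97 for Rps19, Gm8172 had 93 and 79 against 122 and 107 for Rps6, and Rpl37rt had 54 and 62 against 71 and 85 for Rpl37. Except for Rps2-ps13 and replicate 2 of Rps19-ps6, these copies had fewer reads than their parents.

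Among ribosomal families, 6 copies of Rpl17 had 52 and 60 reads in all against 7 and 12 for the parent, a share of 85.7% ± 3.40 (SD, n = 2). Rpl17-ps5 held most of them, with 37 and 40. The 5 copies of Rpl35a had 96 and 110 reads against 22 and 23, with Gm10243 at 65 and 70. The 3 copies of Rpl21 had 87 and 111 against 32 and 28. BC004004, which matches those copies nearly as well, had 51 and 46 reads, so their share depends on which gene is taken as the parent. The 3 copies of Rps2 had 145 and 134 reads against 80 and 62, and those of Rps6 had 107 and 91 against 122 and 107. The 4 copies of Rpl7a had 21 and 25 against 33 and 31, and the 3 of Rps27a had 39 and 74 against 98 and 128. Summed over both libraries, 17 of 156 families had more reads on their pseudogenes than on the parent. Of these 17 parents, 5 had 0 reads.

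The chaperone and proteolysis group had 8 copies with 2187 and 2043 reads, nearly all from Gm15459 and Gm10123. Glycolysis had 12 copies of 2 parents with 743 and 609 reads; beside Gapdh this is Gm4735, with 14 and 9 reads, whose best match is Eno1b and whose score for Eno1 is nearly as high. Respiratory chain and mitochondrial parents had 9 copies with 298 and 339 reads. Copies of chromatin and RNA-binding genes numbered 10, with 203 and 125 reads, and of cytoskeletal genes 6, with 66 and 35.

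The share taken by the copy was lowest for cytoskeletal parents, with a median pair share of 0.353% over their 6 pairs, and reached 33.1% over the 9 mitochondrial pairs. Their parents differ widely in abundance: the 5 cytoskeletal parents summed to 5059 and 4329 reads and the 8 mitochondrial parents to 988 and 1049. Copies of translation factors (2), signalling and trafficking genes (3) and ferritin and redox genes (1) were few, and 72 copies of 69 other parents had 921 and 894 reads.

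Over the 178 pairs with at least 20 reads of pseudogene plus parent in each library, the median share of the pseudogene was 11.1%, with quartiles of 4.37% and 26.9%. It was above 50% in 15 pairs. In 174 pairs both libraries lay on the same side of 50%, which says little about reproducibility because most shares lay far below 50%. Of these pairs, Gm12671 stood at 94.3% ± 1.46, Gm12033 at 92.1% ± 3.03, Gm5559 at 90.1% ± 4.23 and Gm7336 at 85.8% ± 8.14 (SD, n = 2), each against Gapdh alone. Rpl17-ps5 stood at 80.5% ± 5.07, Gm10243 at 74.99% ± 0.393, Gm13394 at 71.3% ± 4.27 and Rps2-ps13 at 64.5% ± 3.11. Outside the 178, as pairs with at least 20 reads only when both libraries are summed, are AC154707.1 and Gm10259. AC154707.1, with 9 and 10 reads, stood at 65.9% ± 4.76 (SD, n = 2) against the zinc finger gene Zfp994, which had 4 and 6. Gm10259 had 15 reads in each library and its best match Gm10184 had 0. Its score for Kpna2, a nuclear import receptor, is nearly as high, and Kpna2 had 29 reads in each.

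In the reference sequence, pseudogenes with reads were close copies of their parents. Identity in CAST/EiJ was not looked at. The median identity was 99.8% for the 85 with 20 or more reads and a single parent, 99.4% for the 120 with 5 to 19, 95.7% for the 379 annotated pseudogenes with 1 to 4 and 88.9% for the 8205 with 0. Of the 205 with a parent, 146 (71.2%) were at least 99% identical and 46 of these were identical. The median parent had 167, 109, 119 and 92 reads in the same order of classes.

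Read by identity class, 38.0% of the 121 identical copies in the annotation reached 5 reads (Wilson interval 29.9% to 46.9%), as did 24.9% of the 402 copies at 99% to under 100% (20.9% to 29.3%). In the next class down, 95% to under 99%, it was 1.77% of 1635 copies (1.24% to 2.54%), and below 90% it was 0.453% of 4634. Restricted to copies whose parent had at least 100 reads, the shares were 47.5% of 61 identical copies, 31.6% of 187, 2.10% of 811, 0.821% of 975 and 0.358% of 2233 in the same descending order. Copies at least 99% identical but not identical held 59.7% ± 1.53 of the group's reads, and identical ones held 30.8% ± 0.921 (SD, n = 2). Copies of the same parent are not independent, and no test was made.

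**Figure D3:**
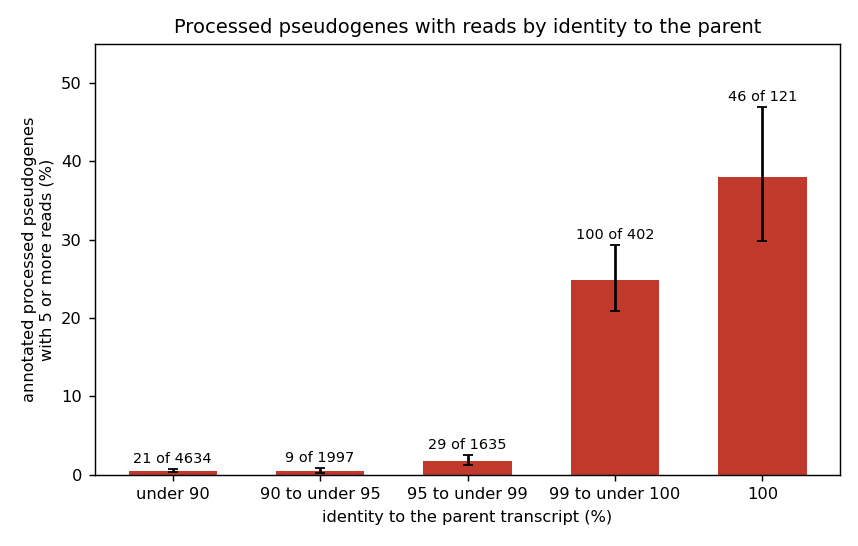
Share of annotated processed pseudogenes with 5 or more reads (bars, with 95% Wilson intervals) by identity to the parent transcript in percent. The share is 0.453% below 90% identity and 38.0% for identical copies, with the step between the classes below and above 99%.

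The parent's reading frame was kept in many copies. An alignment without gaps over the whole coding sequence was found for 131 of the 205, and in 128 of these the frame was open. Open means a start codon and no stop codon before the parent's own, and that final stop was not checked. For pseudogenes with 0 reads such an alignment was found for 519 of 8205, of which 391 were open. With the whole coding sequence not required, 149 of the 205 and 1512 of the 8205 aligned without gaps. Gm10123, for example, covers 99.6% of the coding sequence of Ppia without gaps and is not among the 131. The 128 include 80 with the same residues as the parent, among them Gm12671, Rpl3-ps1, Rps2-ps13 (all of its 7 differing bases are silent) and Rps19-ps6 (5 silent differences). Gm15459 changes a single residue of Hspa8. The close copies are also those most likely to keep a frame, and the part of each in the number of reads was not tested.

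Reads on these pseudogenes were almost all unspliced, as the annotated copies are. Models with at least 2 exons held 95 reads in replicate 1 and 93 in replicate 2, 1.49% ± 0.00973 of the group's reads (SD, n = 2). For the parents of the group it was 95.2% ± 0.742, and for all protein-coding genes 89.3% ± 1.22. This contrast follows largely from the locus: the same cDNA gives a single-exon model on a copy without introns and a spliced model on its parent. It therefore cannot show where the RNA was made. Annotated models held 98.5% ± 0.155 of the reads on pseudogenes and 71.5% ± 1.12 of those on protein-coding genes. Of the 400 annotated single-exon models counted over both libraries, 366 carry the exact ends of the annotation, so the ends of the reads themselves cannot be seen in the deposited models. The median model length per read was 843 ± 72.1 bases on pseudogenes and 2283 ± 5.66 on protein-coding genes.

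Spliced reads were found for 32 of the 215, and 4 had only spliced reads. The annotated 3-exon transcript of 2810025M15Rik held 12 and 13 reads, all but 1 of this gene's reads. The gene is 78.8% identical to Rpl37a over the aligned part. AC154707.1 had 9 and 10 reads and Gm10509 had 6 and 6, all spliced, and both match zinc finger genes. Gm10509 matches Zfp983 at 96.5%. A930017M01Rik had 3 and 7 reads, all spliced, and aligned to Smg5 over too little of its length to be given a parent. AC121957.1 had 8 and 7 spliced reads of 10 and 7, B230303A05Rik had 3 and 4 of 8 and 7, and Gm4118 had 5 and 2 of 5 and 3. For Ppp1ccb, identical to the phosphatase subunit gene Ppp1cc, 9 and 4 of 56 and 50 reads were spliced.

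The spliced reads of 2 other genes have a structure of their own. Gm1821, a copy of the polyubiquitin gene Ubb at 98.5% identity, had 12 and 4 spliced reads of 14 and 15. Its gaps were 228 bases in 7 and 3 reads and 456 bases in 5 and 1, and polyubiquitin genes encode ubiquitin in tandem repeats. Gm18103 (chromosome 9, 57483810 to 57485304) had 4 spliced reads in each library, of 10 and 4. Their intron of 43517 bases spans the annotated copy and their exons do not touch it, so these reads lie outside the annotated copy. None of its other reads covered at least 50% of the shorter of model and annotated exon either, so no read of this gene counts as one over the annotated copy.

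Transcribed processed pseudogenes, for which the annotators found locus-specific transcript evidence, numbered 31 of 296 annotated (10.5%), against 184 of 9941 (1.85%) of the other type. They had 459 and 492 reads. Beside Gm15500, Rpl37rt and Ppp1ccb, those with at least 20 reads included Gm10175 (35 and 45 reads; Atp5g2, 53 and 67), Gm1821, Gm10275 (13 and 14; Rpl12, 19 and 22), 2810025M15Rik, Magef1 (17 and 9), Rps4l and Gm5641 (9 and 11; Hnrnpa3, 83 and 89). Gm10175 and the processed pseudogene Gm10231 are both identical to the annotated coding part of Atp5g2. Gm10231 had 42 and 48 reads. In annotated transcripts alone, Gm10175 still had 35 and 45 reads and Atp5g2 had 27 and 22, and the mean share of Gm10175 was 61.8% in place of 39.98%.

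Not all of the group are close copies: 30 of the 205 were under 95% identical to their parent, a range in which parent and copy can be told apart at many bases. Rps4l (79.8% identical to Rps4x, subunit of the small ribosomal particle) had 13 reads in each library, none of them spliced, against 137 and 119 for Rps4x. Its first 60 coding bases, with 7 differing bases in capitals, show the contrast with the windows above; the stretch of Rps4l is chr6:148354710-148354769 on the plus strand.
Rps4l: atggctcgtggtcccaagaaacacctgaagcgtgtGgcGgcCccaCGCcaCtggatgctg
Rps4x: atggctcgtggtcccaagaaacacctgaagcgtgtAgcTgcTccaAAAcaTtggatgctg
Gm7805 is 88.3% identical to Mrpl20, a mitochondrial ribosomal protein gene, and had 21 and 15 reads against 79 and 68. Gm15607 is 91.4% identical to Rpl35 and had 10 and 13 reads against 156 and 244; Gm2000, which matches nearly as well, had 13 and 15. Gm715 (69.95% identical to 1810013L24Rik) had 8 and 7 reads. Gm7805, Gm15607 and Gm715 were named after their values were seen. Copies under 90% identity held 134 and 117 reads in all, 1.98% ± 0.173 of the group's reads (SD, n = 2).

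By position, the 215 genes lie on all autosomes and both sex chromosomes, with 20 on the X chromosome (2.11% of the 949 annotated there) and 1, Gapdh-ps15, on the Y chromosome with 2 and 5 reads. They share exonic bases on the same strand with another annotated gene in 7 cases: Gm10774 with Usp50, Rpl19-ps11 with Gm27288, Gm15421 with Orc5, Gm12715 with Gm22801, Gm4149 with the microRNA gene Mir682, Gm15725 with Lrrc58, and Gm6740 with another gene of the same symbol. Of these, Gm10774 had the most reads, 40 and 58, against 57 and 73 for its parent Polr2l, an RNA polymerase subunit. In annotated transcripts alone Polr2l had 27 and 26 reads, and the mean share of Gm10774 was 64.4% in place of 42.8%. For Gm15725, a copy of Actb with 4 and 1 reads, 12 and 10 reads lay over its exons when reads assigned to Lrrc58 were included. Another 24 lie within introns of a gene on the same strand. For 199 genes, counting every read on the same strand that covered the gene's exons gave exactly the gene's own reads. Antisense reads were found over 12 genes, 31 in replicate 1 and 34 in replicate 2. Most were over Fgfr3-ps (11 and 14, assigned to Nvl) and Gm49190 (10 and 10, assigned to Mapk1ip1l), which had 3 and 3 and 2 and 3 reads of their own.

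The libraries were then compared, which asks only how far these libraries differ, not conditions. Each gene with at least 20 reads was compared against all other mouse reads by Fisher's exact test, two-sided, adjusted by Benjamini-Hochberg over all 8875 genes tested. Ratios are replicate 1 over replicate 2. Of all genes tested, 1.58% were called at 0.05, 0.834% higher in replicate 1 and 0.744% higher in replicate 2. Of the 87 pseudogenes tested, 7 (8.05%) were called, 3 higher in replicate 1 and 4 higher in replicate 2; 17 (19.5%) had an unadjusted p under 0.05, against 10.3% of all genes tested. The p-values measure departure from counting error only. A difference may be technical or lie in how reads were assigned to a locus. It may also reflect fewer cells of a type or less RNA per cell. Bulk RNA of these libraries cannot tell these apart, and none was tested.

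Mpc1-ps (chromosome 12, 110858565 to 110858894), a copy of the mitochondrial pyruvate carrier gene Mpc1, had 62 reads in the library of replicate 1, against 5 in that of replicate 2 (log2 ratio 3.36; adjusted p by Fisher's exact test 9.15e-10). Cbx3-ps6, a copy of the gene for heterochromatin protein HP1 gamma, had 56 and 8 (log2 ratio 2.59, adjusted p 1.31e-06). Gm11223, a copy of the microtubule regulator gene Stmn1, had 32 and 2 (log2 ratio 3.56, adjusted p 5.30e-05). In the reference sequence, each differs from its parent at the single base shown above. The same base of Cbx3-ps6, A390G, is shared by the second copy Cbx3-ps7, which also carries C399T; Cbx3-ps7 had 92 and 71 reads and was not called (log2 ratio 0.23, adjusted Fisher p 0.860).

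Of the parents, Mpc1 had 131 and 94 reads, Cbx3 had 131 and 166, and Stmn1 had 86 and 85. The share of the pair was tested by Fisher's exact test over 464 pairs of any processed pseudogene with at least 1 read, of which 0.647% were called. These were the same 3 pseudogenes. Mpc1-ps took 32.1% of its pair (Wilson 25.9% to 39.0%) in replicate 1 and 5.05% (2.18% to 11.3%) in replicate 2, with an adjusted Fisher p of 5.70e-06. Cbx3-ps6 took 29.9% and 4.60% (adjusted Fisher p 2.52e-08), and Gm11223 took 27.1% and 2.30% (adjusted Fisher p 9.92e-05). In each, the intervals of the 2 libraries do not overlap, but they come from the counts that gave the calls and add no further evidence. Counting annotated transcripts alone left Cbx3-ps6 and Gm11223 called. Mpc1 then had 2 and 6 reads, most of its reads being in models outside the annotation, and its pair had too few reads in replicate 2 to be tested.

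**Figure D4:**
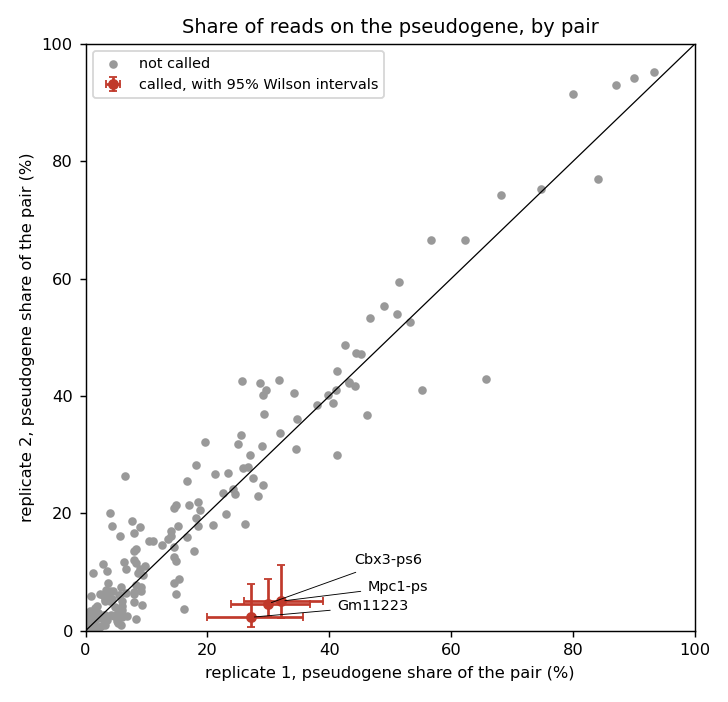
Share of the reads of pseudogene plus parent that fell on the pseudogene, replicate 1 on the horizontal axis and replicate 2 on the vertical axis, in percent, for pairs with at least 20 reads in each library. The 3 pairs in red, with 95% Wilson intervals, lie at 27.1% to 32.1% in replicate 1 and at 2.30% to 5.05% in replicate 2, and no other pair was called, although 13 in all had an unadjusted Fisher p under 0.05.

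The 4 pseudogenes called higher in replicate 2 differed by less. The counts of Gm14303 were 81 and 128, a log2 ratio of -0.80 with an adjusted Fisher p of 0.00915, and Rps19-ps6 had 70 and 111 (-0.80, adjusted Fisher p 0.0229). Gm12338 had 71 and 109 (-0.76, adjusted Fisher p 0.0408) and Gm15500 had 103 and 144 (-0.62, adjusted Fisher p 0.0461). All are copies of genes for small ribosomal or respiratory proteins or of Rpl5, and none of their pair shares was called. Gm15500 lost its call with TMM library sizes (adjusted Fisher p 0.0666) and with a minimum of 10 reads, and Gm15500 and Gm12338 lost it with no minimum. Gm12671 gained a call with TMM library sizes (adjusted Fisher p 0.0498) and with a minimum of 50 reads (0.0435).

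Across the 87 tested, 28 had a higher CPM in replicate 1 and 59 in replicate 2, with a median log2 ratio of -0.25, against -0.01 over all genes tested. The median differed between classes of model length. Most pseudogene models carry the exact ends of the annotation, so their length need not be that of the cDNA. Genes of under 500 bases of model per read had a median log2 ratio of -0.48 over all 113 tested and -0.40 over the 45 pseudogenes among them. From 500 to under 1000 bases it was -0.22 over 511 genes and -0.24 over 25 pseudogenes, and from 1000 to under 2000 bases 0.06 over 2201 genes and -0.02 over 15 pseudogenes. At 2000 bases or more it was -0.02 over 6050 genes and 0.22 over 2 pseudogenes. The 41 tested copies of ribosomal proteins had a median of -0.30. All markers listed for 7 cell types had reads. Oligodendrocyte markers summed to 5375 CPM in replicate 1 and 2730 CPM in replicate 2, and the choroid plexus marker stood at 193.6 and 87.4 CPM. Astrocyte markers summed to 1287 and 1495 CPM, those of pyramidal and granule neurons to 2248 and 2109, of interneurons to 236 and 266, of microglia to 108.4 and 107.5 and of blood to 239.9 and 254.1. The part of length or of cell type in the differences was not tested.

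**Figure D5:**
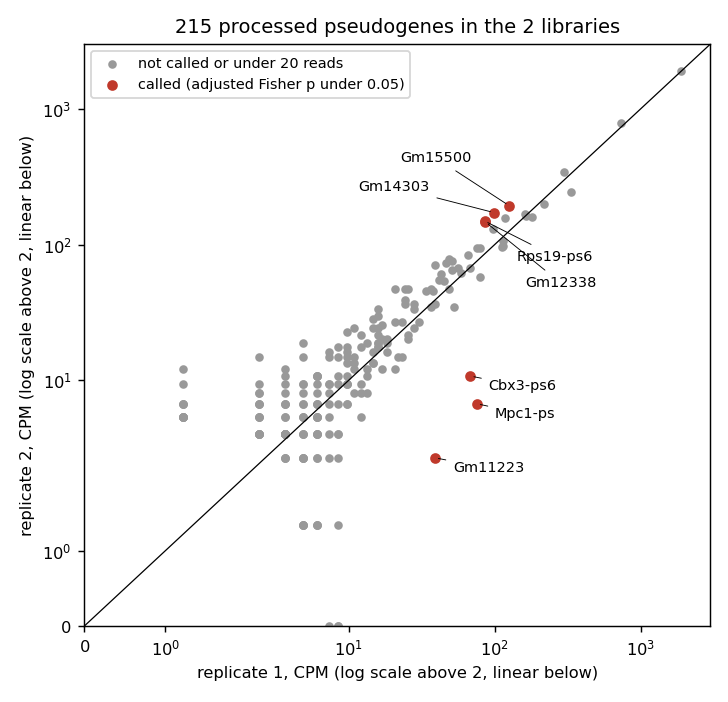
CPM of the 215 processed pseudogenes in replicate 1 (horizontal) and replicate 2 (vertical), on axes that are logarithmic above 2 CPM and linear below. The 7 called genes are in red: Mpc1-ps, Cbx3-ps6 and Gm11223 lie well below the diagonal and the other 4 just above it.

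At the threshold of the rule, 19 genes had exactly 5 reads and 26 had exactly 4. Just inside were AA414768 (1 and 4 reads), AC125059.1 (1 and 4), Ak3l2-ps (3 and 2) and Gm10169 (1 and 4). Just outside were Apoo-ps (2 and 2), Gm10060 (2 and 2), Gm10136 (2 and 2) and Gm10240 (4 and 0). All 215 had a read in replicate 1 and 212 in replicate 2; those at 0 in replicate 2 were Gm10182 and Gm6055 with 7 reads in replicate 1 and Gm5842 with 6, which were named after their values were seen.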

How the data were processed

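Read counts per transcript model, 1 file per library, were used as deposited, with no normalization, per the file headers. Models were called on mm10 with GENCODE M21, per the text beside the deposited files; for the aligner and caller, names were not given in the sources used here. Both libraries carried ERCC and SIRV spike-ins, whose reads (10939 and 9523) were left out. Counts were summed per gene over all models. Pseudogenes and lists were chosen with earlier results of these data known. Parents came from blastn 2.17.0 (word size 16, e-value 1e-20, plus strand) of pseudogene transcripts against protein-coding transcripts of GENCODE M21, 1 best score, at least 50% of the length aligned; 21 had a second gene within 98% of the best score. Genes with at least 20 reads were compared between the libraries by two-sided Fisher's exact tests (scipy 1.17.1), adjusted by Benjamini-Hochberg over 8875 genes; log2 ratios have 0.5 reads added to each count. The tests were checked on simulated data. The median and the test of pair shares used pairs with at least 20 reads of pseudogene plus parent in each library; shares carry 95% Wilson intervals for counting error only. The alternatives were TMM library sizes (edgeR 4.0.16), other read minimums, 1 read added, annotated transcripts alone, every read on the same exons, and each library left out. Named genes were the 20 most abundant, those called, the 10 highest pair shares among pairs with at least 20 reads over both libraries, the 10 with most spliced reads, transcribed pseudogenes with at least 20 reads, the 8 largest families, up to 10 with same-strand overlaps, and 4 genes on each side of the threshold. Others outside this rule are named as such or as examples of a group. A transcribed pseudogene that the rule names is not reported here.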

Additional observations from a re-analysis of the deposited data

How the results depend on the processing

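No paired analysis was possible because there is 1 group and no second group to pair its replicates with. Counting annotated transcripts alone gave 74 genes differing between the libraries in place of 140, a pseudogene share of known-gene reads of 1.24% in place of 0.900%, and a median pair share of 14.1% in place of 11.1%. Between 5 and 7 pseudogenes were called under the settings run, and 99 to 140 genes under those other than annotated transcripts. All 7 pseudogene calls were kept with annotated transcripts, with 1 read added and with reads over the same exons. TMM library sizes exchanged Gm15500 for Gm12671, and a minimum of 50 reads, under which Gm11223 is not tested, exchanged it for Gm12671. A minimum of 10 reads left 135 pseudogenes in place of 215. With each pseudogene counted equally, the median share of spliced reads was 0. Leaving out a library gave 145 to 146 pseudogenes with 5 reads, a share of known-gene reads of 0.859% to 0.940%, a median pair share of 9.09% to 11.6% and a spliced share of 1.48% to 1.49%. Among single genes, annotated transcripts alone moved 24 values, and the mean pair share became 71.2% in place of 18.6% for Mpc1-ps, 61.8% in place of 39.98% for Gm10175 and 64.4% in place of 42.8% for Gm10774. Reads over the same exons moved 5 pair shares: 5.67% in place of 16.3% for AC121957.1, 16.2% in place of 24.2% for B230303A05Rik, 0% in place of 4.66% for Gm18103, 1.09% in place of 0.243% for Gm15725 and 40.4% in place of 39.98% for Gm10175. Log2 ratios kept their sign in all of these. The cause of these changes was not tested. With 2 libraries and a median of 14 reads per pseudogene, most of the 215 were too shallow to be tested.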
